A study of Mus musculus with 79 samples.

Results

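Embryoid bodies at day 2 of differentiation (EB D2) that were formed from a mouse embryonic stem cell line with all of Dnmt1, Dnmt3a and Dnmt3b knocked out (DNMT KO) were compared with day 2 embryoid bodies of the parental line it was made from (DNMT WT). The libraries were picked by their labels alone and gave 2 of DNMT KO, replicates 2 and 3, against 3 of DNMT WT, replicates 1 to 3, which is 5 of the 79 libraries in the series. Every gene of the deposited expression table was considered, 35230 in all, and 15267 of them, those reaching 1 RPKM (reads per kilobase of exon, scaled to the library's depth) in 2 or more of the 79 libraries, entered the tests. The rest of the series covers a line without Tet1, Tet2 and Tet3 (TET KO) with its own parent (TET WT), and ESCs held in 2i and LIF (ESC D0), epiblast-like cells at days 1 and 2 (EpiLC D1 and EpiLC D2) and embryoid bodies at days 4, 6 and 8 (EB D4, EB D6 and EB D8). Each genotype is represented by 1 line, so traits of the knockout line itself and effects of losing the enzymes cannot be told apart. Which exons were deleted is not stated in the labels. Whether the replicates came from different cultures is not labelled. The p-values therefore reflect only the spread between libraries of a group, which may be technical. For the main comparison that spread was estimated over the EB D2 libraries of all 4 genotypes, those of the TET lines included. The libraries are of bulk RNA, in which fewer cells of a type and less RNA per cell cannot be told apart.

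DNA methylation places a methyl group on cytosine, mostly where cytosine is followed by guanine (CpG). DNMT3A and DNMT3B write new methylation and DNMT1 copies it to the daughter strand after replication, guided by UHRF1. Mouse ESCs in 2i and LIF hold little methylation, gain it as they leave naive pluripotency, and can grow without it, whereas promoters of many germline genes and the silent alleles of imprinted genes are known to rely on it. Day 2 embryoid bodies are at this exit from naive pluripotency, before most gastrulation-like genes come on.

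The 5 libraries held 10300000 to 11500000 reads each, in a series that ranged from 7800000 to 13900000. DNMT KO replicate 2 stood apart from the other 4 libraries. Between DNMT KO replicates 2 and 3, 227 genes differed by a log2 of 1 or more, against 102 to 121 genes between pairs of DNMT WT libraries, and the root mean square log2 difference was 0.376, against 0.246 to 0.251. The deviation of DNMT KO replicate 2 from the DNMT WT mean ran with gene length, with a median log2 of 0.15 in the shortest of 4 equal bins of genes by exon length and -0.18 in the longest, while DNMT KO replicate 3 stayed between -0.02 and 0.03. Replication-dependent histone genes, 42 tested, summed to 150.5 RPKM in DNMT KO replicate 2 and 31.1 RPKM in DNMT KO replicate 3, against 23.8 to 36.5 RPKM in the DNMT WT libraries. Results are therefore given with both DNMT KO libraries. Those without replicate 2 are added where a list member's EB D2 call changes or another named gene loses its call. Leaving out replicate 2 makes replicate 3 the single DNMT KO library, assumed to vary like the others.

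**Figure D1:**
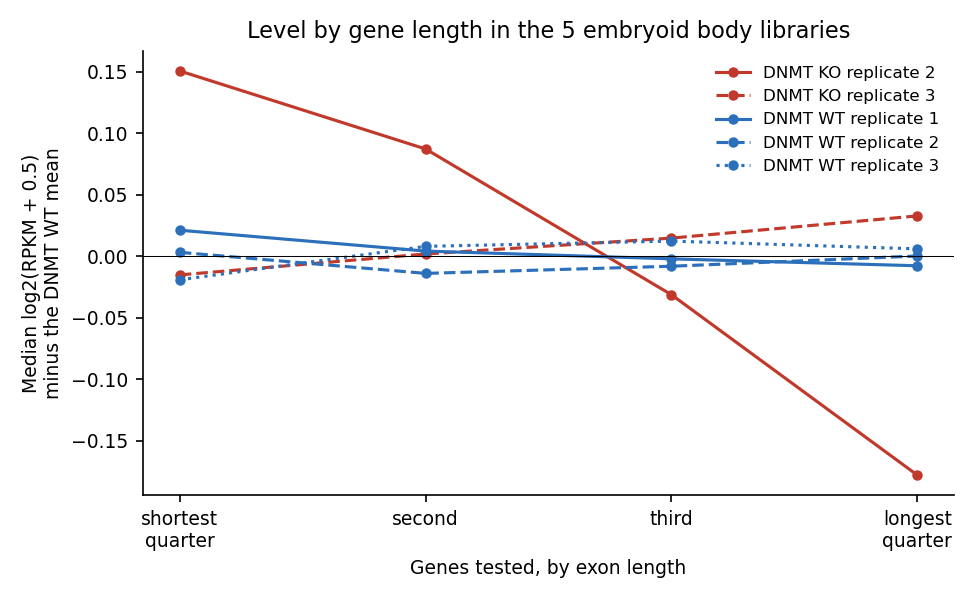
Median difference of each library from the DNMT WT mean, on the log2(RPKM + 0.5) scale (y axis), in 4 groups of genes tested by exon length (x axis), with DNMT KO libraries in red and DNMT WT libraries in blue. DNMT KO replicate 2 runs from 0.15 in the shortest to -0.18 in the longest genes, and the other 4 libraries lie between -0.02 and 0.03.

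The expression state of both lines matched the label of day 2 embryoid bodies. Pou5f1, the core pluripotency factor, stood at 453 and 369 RPKM in DNMT KO against 424, 388 and 404 RPKM in DNMT WT, and Fgf5, a marker of the formative epiblast, at 30.1 and 28.7 RPKM in DNMT KO against 33.1, 34.4 and 36.8 RPKM in DNMT WT. Klf4, a naive pluripotency factor, was low in both, at 1.74 and 2.22 RPKM in DNMT KO against 2.42, 2.51 and 2.01 RPKM in DNMT WT. Of 15 primitive streak and early mesoderm genes in the table, 7 were under 0.5 RPKM in all 5 libraries, and of 12 fibroblast genes, 8 were, Col1a1 among them. The fibroblast list summed to 53.04 to 74.4 RPKM in DNMT KO and 67.6 to 72.8 RPKM in DNMT WT.

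The targeted transcripts were low but not absent in DNMT KO. Dnmt1 (chr9, GRCm38) had 4.397 and 6.25 RPKM in DNMT KO against 46.9, 46.9 and 46.9 RPKM in DNMT WT, a log2 change of -3.04 ± 0.12 (SE, adjusted p = 2.46e-06). Dnmt3a had 4.07 and 4.94 RPKM in DNMT KO against 44.9, 45.6 and 46.5 RPKM in DNMT WT, a change of -3.21 ± 0.08 (adjusted p = 8e-08). Dnmt3b, the most abundant of the 3 at this stage, had 41.4 and 58.6 RPKM in DNMT KO against 375, 380 and 382 RPKM in DNMT WT, a change of -2.93 ± 0.12 (adjusted p = 2.66e-06). Log2 changes here and below are DNMT KO minus DNMT WT on the log2(RPKM + 0.5) scale, which understates changes of weakly expressed genes, and adjusted p-values are from limma over all 15267 genes. Genes of the Y chromosome were also low in DNMT KO: Eif2s3y had 0.648 and 0.666 RPKM there against 15.3, 14.3 and 14.3 RPKM in DNMT WT (change -3.71), with Ddx3y at -2.68, Uty at -2.21 and Uba1y at -2.10. These 4 are all of the called genes among 6 Y-linked genes tested, and the part that this difference between the lines plays in other results was not tested.

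Among the 18 other genes of the methylation machinery, 0 were called by limma, and 2 passed an adjusted p of 0.05 with a smaller change. Dnmt3l, the catalytically inactive partner of DNMT3A and DNMT3B, was at 180 and 155 RPKM in DNMT KO against 93.1, 81.4 and 91.3 RPKM in DNMT WT, a change of 0.91 ± 0.09 (adjusted p = 0.000954). Both DNMT KO libraries were above all 3 DNMT WT libraries, and without DNMT KO replicate 3 the change is 1.02 and is called. Mbd4, a glycosylase that removes thymine from deaminated methyl-CpG, was lower in DNMT KO (log2 -0.74, adjusted p = 0.0107). Uhrf1, the partner of DNMT1, had 96.9 and 125 RPKM in DNMT KO and 111, 102 and 112 RPKM in DNMT WT, with overlapping groups. Tet1, which oxidises methylcytosine, differed between the DNMT KO libraries, at 10.1 and 21.98 RPKM, against 24.2, 22.4 and 21.6 RPKM in DNMT WT (log2 -0.59, adjusted p = 0.183). Without DNMT KO replicate 3 it would be called, at -1.13.

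Rises outnumbered falls in DNMT KO at this stage. A gene was called when its adjusted p was under 0.05 and its log2 change at least 1 in size. In DNMT KO against DNMT WT, 174 of 15267 genes were called, 1.14% of those tested. The count was 61 with only DNMT libraries in the fit, 87 with a pseudocount of 1 RPKM, 305 with 0.1 RPKM, 308 with none and 360 with voom on recovered reads. Of the 174, 143 were higher in DNMT KO (0.937%) and 31 were lower (0.203%), while the median change of all genes tested was 0.00404. The rises were mostly of weakly expressed genes: 75 of the 143 had a DNMT WT mean under 1 RPKM, 52 reached a DNMT KO mean of 5 RPKM and 10 reached 20 RPKM. Their median level was 3.13 RPKM in DNMT KO and 0.936 RPKM in DNMT WT, and their median change was 1.19. A log2 change of 2 or more in size was reached by 4 genes that were higher and 7 that were lower in DNMT KO, and all 7 were targeted or Y-linked. At any size of change, 1075 genes had an adjusted p under 0.05, 699 higher and 376 lower in DNMT KO. The libraries of the groups did not overlap for any of the 174 called genes, as for 5575 of all genes tested (36.5%). Called genes were short, with a median exon length of 2288 bases among those higher and 2277 among those lower, against 3913 over all genes tested. Without DNMT KO replicate 2, 135 genes were called, 102 higher and 33 lower, including 82 of the 143 and 23 of the 31. Without DNMT KO replicate 3, 372 were called, including 132 of the 143 and 23 of the 31, and with libraries centred within bins of exon length, 165 were called, including 117 of the 143 and all 31.

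**Figure D2:**
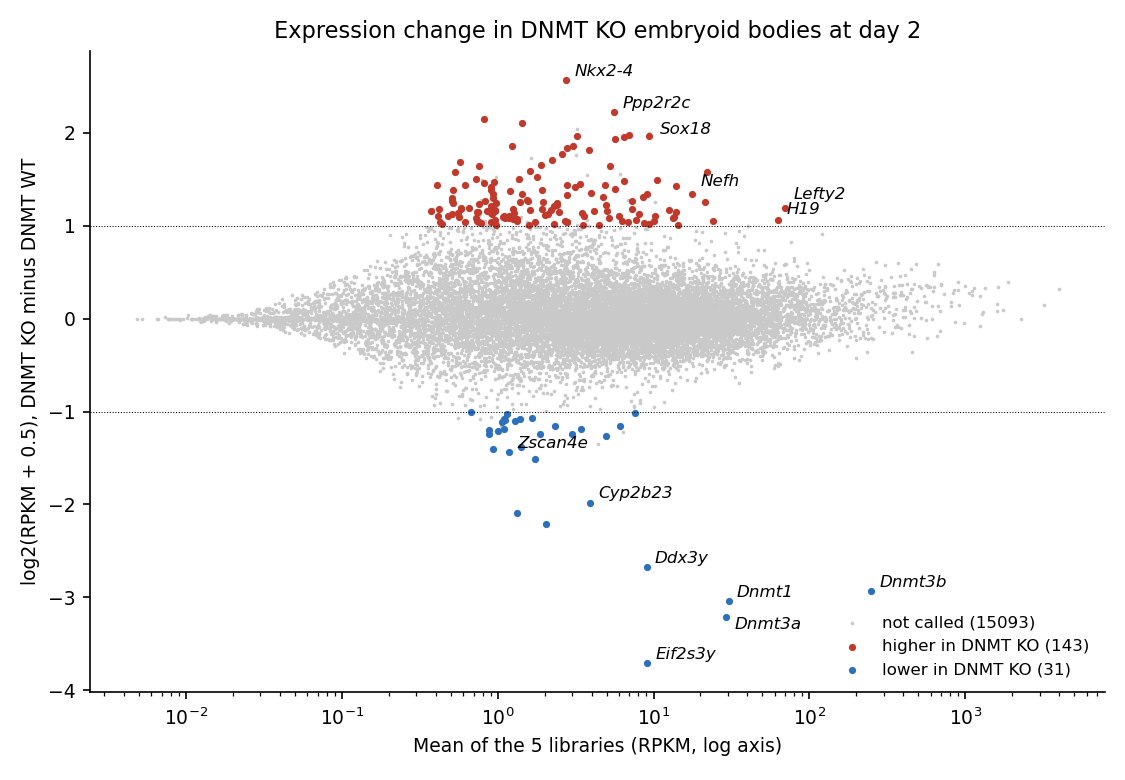
Log2 change of each of the 15267 genes tested, DNMT KO minus DNMT WT on the log2(RPKM + 0.5) scale (y axis), against the mean of the 5 libraries in RPKM (x axis, log scale), with called genes in red (higher in DNMT KO, 143) and blue (lower in DNMT KO, 31) and dotted lines at a log2 of 1. Most rises lie at low levels and under a log2 of 2, and the largest falls are the targeted genes and Y-linked genes.

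Germline genes, which are silent in most somatic cells, held several of the called rises. They were taken over 4 lists, of germ cell regulators, piRNA and transposon defence, meiotic chromosome and other testis genes. Of their 71 tested genes, 8 were higher in DNMT KO and 1 was lower, with a median change of 0.23. Over all genes tested, 0.937% were higher and 0.203% lower, with a median of 0.00404. All gene lists in this report were chosen with earlier results of these data known. Their counts and medians therefore describe the members and are no independent support. Promoters of 5 of the 8 are printed first, with CpG, the site that the missing enzymes methylate, in capitals. These libraries hold RNA only, so whether these sites carry methylation in DNMT WT was not tested. Each is the 150 bases before the gene's RefSeq start in build GRCm38.p6, upstream of exon 1 and on the minus strand, 5′ to 3′, at chr17:50293621-50293770 for Dazl, chr6:18109062-18109211 for Asz1, chr5:135350045-135350194 for Fkbp6, chrX:134964755-134964904 for Nxf2 and chrX:51801234-51801383 for Usp26.
Dazl: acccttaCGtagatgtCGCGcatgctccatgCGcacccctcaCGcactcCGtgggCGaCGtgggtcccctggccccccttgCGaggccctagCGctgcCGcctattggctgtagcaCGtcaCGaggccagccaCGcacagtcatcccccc
Asz1: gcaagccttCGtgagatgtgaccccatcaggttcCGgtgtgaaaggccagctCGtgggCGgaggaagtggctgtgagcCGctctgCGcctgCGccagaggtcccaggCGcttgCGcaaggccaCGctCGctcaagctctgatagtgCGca
Fkbp6: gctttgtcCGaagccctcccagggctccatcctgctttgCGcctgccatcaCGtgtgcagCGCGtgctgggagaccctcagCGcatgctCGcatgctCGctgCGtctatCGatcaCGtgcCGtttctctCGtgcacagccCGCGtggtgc
Nxf2: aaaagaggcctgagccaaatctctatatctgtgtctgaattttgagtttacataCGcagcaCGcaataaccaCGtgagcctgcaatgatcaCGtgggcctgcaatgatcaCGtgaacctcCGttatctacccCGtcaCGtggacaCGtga
Usp26: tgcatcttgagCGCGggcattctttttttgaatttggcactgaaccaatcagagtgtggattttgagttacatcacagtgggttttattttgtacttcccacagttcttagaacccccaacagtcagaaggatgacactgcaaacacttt
These windows held 14 CpG in Dazl, 12 in Asz1, 15 in Fkbp6, 9 in Nxf2 and 2 in Usp26, a range from CpG-dense to CpG-poor. The palindrome CACGTG, which contains a CpG and reads the same on both strands, stood 2 times in the Fkbp6 window and 5 times in that of Nxf2, and 0 times in those of Dazl, Asz1 and Usp26. In the same window of the other called genes, Sohlh2 held 11 CpG, Tuba3b 8 and Tuba3a 4, and CACGTG stood 0 times in each, so that 2 of the 8 windows held it. Over all 32851 RefSeq promoters, 4.30% held it in these 150 bases. In the full promoters of 300 bases, 2 of the 8 called genes held it. Of the tested germline list genes with a matched promoter, 18 of 61 did (29.5%). Over all 32851 RefSeq promoters, 7.15% held it in 300 bases. With 8 called genes, these shares cannot decide whether its share differs from that of the lists they came from. The share of CpG-dense promoters among called genes is not given, because RefSeq promoters were matched for 76.2% of the 143 higher genes and 73.2% of all genes tested, under the 80% set for such a comparison.

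The regulators and RNA-binding genes of the germline were led by Dazl. Dazl encodes an RNA-binding protein needed for germ cell development, and had 13.9 and 10.1 RPKM in DNMT KO against 2.31, 2.94 and 2.89 RPKM in DNMT WT. The groups were clear of each other, and the change was 1.95 ± 0.18 (adjusted p = 0.0009). Sohlh2, a transcription factor of early germ cells, had 6.88 and 6.30 RPKM in DNMT KO against 3.82, 2.92 and 2.48 RPKM in DNMT WT (log2 1.01), a change that falls under the size threshold without DNMT KO replicate 2 (0.95) and without DNMT WT replicates 2 (0.98) or 3 (0.88). The list of 14 regulators tested also held members below the size threshold in both directions, Taf7l higher at 0.64 and Rbm46 lower at -0.83, and its median was 0.12. Ddx4, the germ cell helicase also called Vasa, did not follow Dazl, with 6.67 and 4.86 RPKM in DNMT KO against 7.24, 8.84 and 10.3 RPKM in DNMT WT (adjusted p = 0.0667).

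Genes of piRNA biogenesis and transposon defence moved in both directions. Fkbp6, a co-chaperone of piRNA loading, had 22.7 and 17.7 RPKM in DNMT KO against 8.41, 10.004 and 9.08 RPKM in DNMT WT (log2 1.09, and 0.92 without DNMT KO replicate 2, where the call is lost). Asz1, a mitochondrial scaffold of the same pathway, had 1.09 and 1.13 RPKM in DNMT KO against 0.103, 0.0339 and 0.220 RPKM in DNMT WT, a change of 1.39 ± 0.17 (adjusted p = 0.00275). Tdrd1, a Tudor-domain protein that binds PIWI proteins, went the other way, with 0.230 and 0.271 RPKM in DNMT KO against 1.21, 1.004 and 1.67 RPKM in DNMT WT (log2 -1.24, adjusted p = 0.00441). With 2 higher and 1 lower called of 17 tested, the list median was 0.35. Another 4 members were higher with an adjusted p under 0.05 below the size threshold: Tex19.1 at 0.93, Piwil2 at 0.86, Tdrd12 at 0.55 and Mael at 0.52.

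Meiotic genes and other testis genes completed the germline lists. Of 23 meiotic chromosome genes tested, 0 were called by limma, and 4 passed the adjusted p alone: Tex11 at 0.92, Hormad1 at 0.85 and Smc1b at 0.60 were higher, and Sycp3, a lateral element of the synaptonemal complex, was lower at -0.52. Tex11 reaches the size threshold without DNMT KO replicate 2, and Hormad1 without DNMT KO replicate 3. Of 17 other testis genes, 4 were higher and 0 were lower in DNMT KO, beside 0.937% and 0.203% of all genes tested. Their median was 0.56. The testis tubulin Tuba3a had 43.9 and 31.0 RPKM in DNMT KO against 11.3, 13.3 and 11.4 RPKM in DNMT WT (log2 1.58), and its copy Tuba3b had 6.51 and 5.03 RPKM in DNMT KO against 1.42, 1.03 and 1.202 RPKM in DNMT WT (log2 1.86). These copies share sequence, so the split of reads between them is uncertain. Nxf2, an X-linked relative of mRNA export factors, had 2.59 and 2.80 RPKM in DNMT KO against 0.907, 0.821 and 0.762 RPKM in DNMT WT (log2 1.26, adjusted p = 0.00136). Usp26, an X-linked testis deubiquitinase, had 0.838 and 1.43 RPKM in DNMT KO against 0.188, 0.116 and 0.344 RPKM in DNMT WT (log2 1.177, and 0.91 without DNMT KO replicate 3, where the call is lost).

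X-linked reproductive gene clusters were less uniform. Rhox2a of the reproductive homeobox cluster had 1.25 and 1.44 RPKM in DNMT KO against 0.345, 0.341 and 0.316 RPKM in DNMT WT (log2 1.14), and it was the only called gene of 13 Rhox genes tested. Rhox5, the best expressed of the cluster, had 428 and 255 RPKM in DNMT KO against 221, 206 and 224 RPKM in DNMT WT, a change of 0.61 that missed the threshold (adjusted p = 0.0771). Of 23 Xlr, Mage and Fthl17 genes, only Fthl17f was called, at 1.38 (adjusted p = 0.0472). Its adjusted p is 0.107 without DNMT KO replicate 2, 0.0744 without DNMT KO replicate 3, 0.123 without DNMT WT replicate 1 and 0.124 without DNMT WT replicate 3. Xlr3a had 14.8 and 10.8 RPKM in DNMT KO and 13.8, 11.2 and 12.8 RPKM in DNMT WT. Rhox, Xlr and Fthl17 genes have close copies, and values of single members are uncertain. Over the whole X chromosome, 18 of the 143 higher genes were X-linked (12.6%), against 571 of 15267 tested (3.74%), and 12 of the 18 kept their call without DNMT KO replicate 2.

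Transcription factors of several families were among the rises, some of them named above. Names of homeobox, SOX, GATA, FOX, T-box, ETS and other factor families were matched, a grouping chosen after values were seen. They covered 23 of the 143 higher genes (16.1%), Sohlh2 and Rhox2a among them, and 276 of the 15267 genes tested (1.81%). The matched words included narrow ones that fit called genes, such as goosecoid and twist, while nuclear receptors were left out. These shares are therefore partly set by the choice of words and are no independent support. Of these 276 genes, 23 (8.33%) were higher and 0 were lower in DNMT KO, their median change was 0.00, and 16 of the 23 kept their call without DNMT KO replicate 2. The largest rise of all called genes was that of Nkx2-4, a homeobox gene of the ventral forebrain, with 7.53 and 4.42 RPKM in DNMT KO against 0.394, 0.50 and 0.824 RPKM in DNMT WT, a change of 2.57 ± 0.27 (adjusted p = 0.00142). Both DNMT KO values lay far above the DNMT WT values but differed from each other. Mafa, which is known as an activator of the insulin gene, was not among the 23. It had 6.43 and 5.98 RPKM in DNMT KO against 0.956, 0.980 and 1.85 RPKM in DNMT WT (log2 1.96). Cebpa, a regulator of myeloid and fat cells, had 4.38 and 3.94 RPKM in DNMT KO against 0.773, 1.09 and 0.944 RPKM in DNMT WT (log2 1.70). Others were weakly expressed in DNMT KO, among them Tbx1 of the pharyngeal arches at 1.51 and 0.936 RPKM (log2 1.58) and Ikzf1 of lymphocytes at 0.850 and 1.06 RPKM (log2 1.44).

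Regulators of blood and endothelium had 3 of 13 tested genes higher in DNMT KO, 0 lower and a median of 0.41. Over all genes tested, 0.937% were higher and 0.203% lower. Sox18, an endothelial SOX factor, had 18.2 and 16.4 RPKM in DNMT KO against 3.83, 3.61 and 4.83 RPKM in DNMT WT, a change of 1.97 ± 0.14 (adjusted p = 0.000196). Gata2, a factor of blood progenitors, had 1.57 and 1.61 RPKM in DNMT KO against 0.467, 0.426 and 0.445 RPKM in DNMT WT (log2 1.14, adjusted p = 0.00115). Etv2, which starts the haematoendothelial programme, had 13.7 and 9.34 RPKM in DNMT KO against 4.35, 5.03 and 6.19 RPKM in DNMT WT (log2 1.07). Its call is lost without DNMT KO replicate 2, at 0.80, and without either of DNMT WT replicates 1 and 2, at 0.96 and 1.05. Tal1 at 0.74 and Kdr, the VEGF receptor of the lineage, at 0.71 passed the adjusted p below the size threshold. Summed over the list, expression was 45.2 to 49.2 RPKM in DNMT KO and 22.3 to 24.9 RPKM in DNMT WT. Sox18 and Etv2 make up a large part of the DNMT KO sums, which therefore do not show a rise across the list. Later markers were scarce: Gata1 was at 0.197 and 0.462 RPKM in DNMT KO against 0.0358, 0.354 and 0.109 RPKM in DNMT WT, and Runx1 was at a log2 of -0.00.

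Of the 8 neuroectoderm genes tested, 2 were higher in DNMT KO and 0 were lower, beside 0.937% and 0.203% of all genes tested. Sox1, the first definitive neural plate SOX factor, had 6.65 and 6.20 RPKM in DNMT KO against 2.59, 2.72 and 2.47 RPKM in DNMT WT (log2 1.16, adjusted p = 0.00142). Sox21, a partner of SOX factors in neural progenitors, had 0.912 and 0.981 RPKM in DNMT KO against 0.179, 0.227 and 0.117 RPKM in DNMT WT (log2 1.10). The list median was 0.17. Genes outside the list that are known from neurons, named for the size of their change, went in both directions, with the axonal kinesin Kif1a lower at -1.27. Ppp2r2c, a brain regulatory subunit of protein phosphatase 2A, had 8.59 and 13.6 RPKM in DNMT KO against 1.92, 2.20 and 1.70 RPKM in DNMT WT (log2 2.22, adjusted p = 0.000368). Neurofilament heavy chain Nefh, named after its values were seen, had 26.9 and 29.4 RPKM in DNMT KO against 10.9, 10.5 and 11.0 RPKM in DNMT WT (log2 1.34, adjusted p = 2.35e-05). Its fellow intermediate filament Prph had 20.8 and 17.4 RPKM in DNMT KO against 9.03, 6.999 and 8.58 RPKM in DNMT WT (log2 1.17). Crabp1, a retinoic acid binding protein, was also higher, with 23.6 and 21.8 RPKM in DNMT KO against 8.47, 8.13 and 7.76 RPKM in DNMT WT (log2 1.43).

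**Figure D3:**
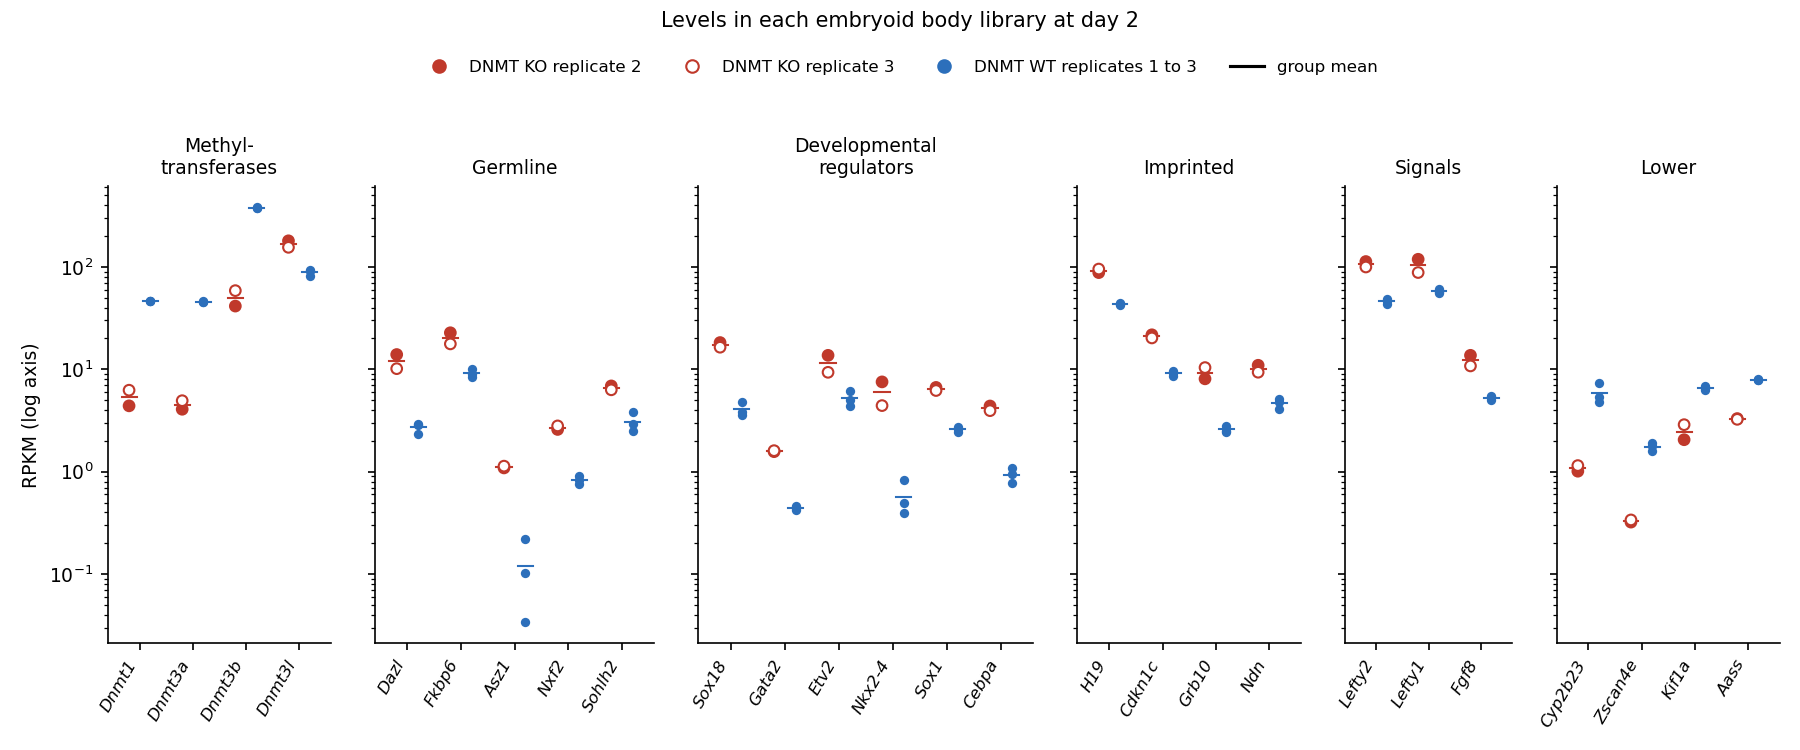
RPKM of 26 genes (log axis) in each DNMT KO library (red, filled for replicate 2 and open for replicate 3) and DNMT WT library (blue), with lines at the group means. The groups do not overlap for any gene shown, and the 2 DNMT KO libraries lie close together for most of them, Nkx2-4 and Etv2 being the widest among the developmental regulators.

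Imprinted genes, which are read from 1 parental allele, were mostly not called. Of 36 tested, 5 were higher and 0 lower, beside 0.937% and 0.203% of all genes tested, and their median was 0.01. Grb10, an adaptor that restrains growth factor receptors, had 8.07 and 10.4 RPKM in DNMT KO against 2.46, 2.82 and 2.49 RPKM in DNMT WT, a change of 1.65 ± 0.12 (adjusted p = 0.000242). Cdkn1c, the cell cycle inhibitor p57, had 21.7 and 20.2 RPKM in DNMT KO against 9.71, 8.60 and 9.20 RPKM in DNMT WT, a change of 1.15 ± 0.09 (adjusted p = 0.000242). H19, a maternally expressed noncoding RNA, had 87.9 and 95.2 RPKM in DNMT KO against 43.2, 42.5 and 44.7 RPKM in DNMT WT (log2 1.06, adjusted p = 0.00146, and 0.98 after quantile normalization). Its neighbour Igf2, the paternally expressed growth factor of the same control region, stood at 0.538 and 0.560 RPKM in DNMT KO against 0.322, 0.335 and 0.342 RPKM in DNMT WT (log2 0.33, adjusted p = 0.224). Ndn, a paternally expressed MAGE-family gene, changed by 1.04 and Dlk1, an inhibitor of Notch signalling, by 1.01. Without DNMT KO replicate 2 they are at 0.93 and 0.83 and lose the call, as does Ndn at 0.96 without DNMT WT replicate 3. Below the size threshold, 4 members were higher (Plagl1, Ascl2, Mest and Gnas, at 0.71, 0.71, 0.34 and 0.30) and 3 were lower (Sfmbt2, Zrsr1 and Impact, at -0.92, -0.50 and -0.42). Peg3 had 14.8 and 24.9 RPKM in DNMT KO and 21.96, 22.9 and 21.5 RPKM in DNMT WT, with overlapping groups. Reads were not split by allele, so the allele read from was not tested.

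Among 11 genes of the Nodal pathway, Lefty2 was the 1 called. Lefty2, a secreted inhibitor and target of Nodal, had 113 and 99.7 RPKM in DNMT KO against 48.2, 43.7 and 46.0 RPKM in DNMT WT, a change of 1.197 ± 0.08 (adjusted p = 0.000138). Lefty1 had 119 and 88.0 RPKM in DNMT KO against 60.2, 56.4 and 55.9 RPKM in DNMT WT, a change of 0.83 (adjusted p = 0.00416) that reaches 1.04 without DNMT KO replicate 3. The receptor Acvr1b was lower at -0.46, with an adjusted p under 0.05, while Nodal itself was at 0.18 (adjusted p = 0.32). The median of the 11 was 0.15. In the BMP and Id list of 12, 0 genes were called by limma and 3 passed the adjusted p, Id1 at 0.82, Id4 at 0.81 and Id3 at 0.74, with a list median of 0.22. Id1, an inhibitor of bHLH factors that BMP induces, had 49.6 and 42.3 RPKM in DNMT KO against 24.4, 26.6 and 26.2 RPKM in DNMT WT. Fgf8, a signal of the primitive streak and later of neural tissue, had 13.7 and 10.8 RPKM in DNMT KO against 5.39, 4.97 and 5.53 RPKM in DNMT WT, a change of 1.13 ± 0.19 (adjusted p = 0.0108) that is 0.96 without DNMT KO replicate 2 and then not called (adjusted p = 0.0572). FGF and ERK feedback genes had 0 of 15 called and a median of -0.19, and Wnt targets and TCF factors 0 of 15 and a median of -0.06.

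The pluripotency lists held few changes at this stage. Of 16 naive genes, 0 passed an adjusted p of 0.05, with a median of 0.04 and a range of -0.32 to 0.46. Nanog, the naive and epiblast factor, had 66.3 and 54.8 RPKM in DNMT KO against 51.5, 47.8 and 46.0 RPKM in DNMT WT (log2 0.31, adjusted p = 0.0667). Of 12 general pluripotency genes, 0 were called, and Dppa2 at 0.27 and Sall4 at -0.30 passed the adjusted p alone. In the formative and primed list of 15, only Fgf8 was called. Factors of the formative state passed the adjusted p with smaller and negative changes: Pou3f1 (Oct6) had 48.3 and 45.3 RPKM in DNMT KO against 64.7, 69.2 and 69.5 RPKM in DNMT WT (log2 -0.53, adjusted p = 0.00491). Otx2, which drives the exit from the naive state, had 23.2 and 28.5 RPKM in DNMT KO against 33.1, 33.3 and 37.3 RPKM in DNMT WT (log2 -0.42, adjusted p = 0.0284). Zic2 at -0.41 and Lef1 at -0.33 were lower as well, and Sox3 at 0.40 and Nkd1 at 0.60 were higher.

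Streak and early mesoderm genes were low in both lines. The 15 in the table summed to 5.41 to 5.91 RPKM in DNMT KO and 5.15 to 6.73 RPKM in DNMT WT. Of the 14 tested, 0 passed the adjusted p (median -0.00). Fgf8, counted in the formative list, was already expressed in both lines and called higher in DNMT KO, as given above. Eomes, a T-box factor of the streak, had 0.788 and 1.67 RPKM in DNMT KO against 2.03, 3.07 and 2.25 RPKM in DNMT WT, a change of -0.80 that missed the threshold (adjusted p = 0.0594), and without DNMT KO replicate 3 it would be called at -1.180. T, or brachyury, had 0.0416 and 0.561 RPKM in DNMT KO and 0.0419, 0.373 and 0.422 RPKM in DNMT WT, where the lowest value of each group is a single read. Of 19 endoderm genes, 0 were called, and Sox17, an endoderm SOX factor, at 0.86, Apoa1 at 0.61 and Afp at 0.40 passed the adjusted p from levels under 1 RPKM. Of 16 trophoblast genes, 0 were called, and Krt19 at -0.88 and Krt18 at -0.72 were lower and Ascl2 was higher.

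Falls outside the targeted and Y-linked genes were few, and several belonged to the two-cell-like programme, a rare ESC state that resembles the early embryo. Of 19 such genes tested, 3 were lower and 0 were higher in DNMT KO, beside 0.203% and 0.937% of all genes tested. Their median was -0.46. Zscan4e had 0.322 and 0.338 RPKM in DNMT KO against 1.89, 1.76 and 1.59 RPKM in DNMT WT, a change of -1.43 ± 0.12 (adjusted p = 0.000642). Zscan4d was at -1.08, with an adjusted p of 0.0264 that is 0.0767 without DNMT KO replicate 2 and 0.0726 without DNMT WT replicate 2, and a change of -0.83 without DNMT WT replicate 3. Usp17lb was at -1.10, with an adjusted p of 0.0496 that rises to between 0.0812 and 0.133 without any 1 of the 5 libraries. Without DNMT KO replicate 2, the called genes of the list were Zscan4e and Zscan4c. Zscan4 and Usp17l genes are near-identical copies, so single members are uncertain. Cyp2b23, a cytochrome P450 gene, had 1.01 and 1.15 RPKM in DNMT KO against 7.36, 5.34 and 4.75 RPKM in DNMT WT (log2 -1.98, adjusted p = 0.00105). Kif1a, an axonal kinesin, had 2.05 and 2.88 RPKM in DNMT KO against 6.22, 6.91 and 6.60 RPKM in DNMT WT (log2 -1.27). Aass, the first enzyme of lysine breakdown, had 3.30 and 3.25 RPKM in DNMT KO against 7.93, 7.96 and 7.89 RPKM in DNMT WT (log2 -1.16, adjusted p = 0.00111). Map7d3, a microtubule-associated protein, was at -1.01, and under the size threshold without DNMT KO replicate 2 (-0.92) or DNMT WT replicates 1 (-0.99) or 3 (-0.97). The naming rule called for 15 falls at 5 RPKM or more, and 9 genes met it.

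Antigen presentation genes split between copies. H2-D1, a classical MHC class I gene, had 20.2 and 19.02 RPKM in DNMT KO against 8.69, 9.55 and 8.75 RPKM in DNMT WT (log2 1.08, adjusted p = 0.00014), and it was the only called gene of 9 in the MHC class I list. H2-K1 at 0.94 and the immunoproteasome subunit Psmb8 at 0.81 were higher below the size threshold, and H2-Q4 was lower at -0.71. H2-Q6, outside the list, had 0.415 and 0.706 RPKM in DNMT KO against 2.37, 2.57 and 2.56 RPKM in DNMT WT (log2 -1.51). These genes are close relatives, so reads could be split among them. Interferon response genes and RNA sensors, often watched after loss of methylation because repeats can trigger them, had 0 of 18 called, and Oas1a was lower at -0.94 (adjusted p = 0.0151).

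The remaining lists held 1 called gene or none. The counts called were 0 of 18 for PRC1.6 and H3K9 methylation genes (median -0.16), 0 of 20 for p53 targets (-0.11), 0 of 17 for immediate early and heat shock genes (-0.03), 0 of 14 for housekeeping genes (-0.02), 0 of 12 for fibroblast genes (-0.03) and 0 of 13 for mitochondrially encoded genes (0.09). Cdkn1a, the p53 target p21, had 19.6 and 20.9 RPKM in DNMT KO and 21.8, 18.4 and 19.5 RPKM in DNMT WT. In the list of metallothioneins and glycolysis, 0 of 16 were called (median -0.21), and 6 glycolytic or glucose transport genes passed the adjusted p with small falls, Slc2a3 at -0.47 the largest, beside a higher Mt2 at 0.59. All 34 clustered protocadherins tested were on the higher side (0.23 to 0.98, median 0.27) and 0 were called by limma, but they share their constant exons and are not 34 separate measurements. The protocadherin Pcdhac2 reaches the size threshold without DNMT KO replicate 2. Hox genes had 1 of 34 called, Hoxd1 at 1.27, whose adjusted p of 0.0384 is between 0.0656 and 0.106 without any 1 of the 5 libraries.

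Other named rises had no common group. Tesc, a calcium-binding regulator, changed by 1.81 and Npw, a neuropeptide, by 1.93, with adjusted p-values of 0.0114 and 0.0475, and both lose the call without DNMT KO replicate 2 (0.0584 and 0.179). Npw also loses it without any 1 of the DNMT WT libraries (adjusted p between 0.0635 and 0.11). Plk5 and Coch, the inner ear protein cochlin, were at 1.49 and 1.44, and Aard was at 1.31. Tsx, an X-linked gene next to the X inactivation centre, was at 1.49, with 19.08 and 15.9 RPKM in DNMT KO against 7.53, 5.07 and 5.25 RPKM in DNMT WT. Efhc2, an X-linked EF-hand gene, had 10.1 and 8.62 RPKM in DNMT KO against 3.34, 3.26 and 3.06 RPKM in DNMT WT (log2 1.40). The histone gene Hist3h2ba was at 1.45, with an adjusted p of 0.0189 that is 0.0946 without DNMT KO replicate 2, the library with the high histone sum, 0.06 without DNMT WT replicate 1 and 0.0632 without DNMT WT replicate 3.

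Set against the other 6 conditions, day 2 embryoid bodies lay on the side of few differences between the lines. The counts of called genes, higher then lower in DNMT KO, were 78 and 80 at ESC D0 (0.511% and 0.524%), 73 and 72 at EpiLC D1 (0.478% and 0.472%), 167 and 76 at EpiLC D2 (1.09% and 0.498%), 689 and 200 at EB D4 (4.51% and 1.31%, or 5.82% in all), 1688 and 1050 at EB D6 (11.1% and 6.88%) and 1490 and 1390 at EB D8 (9.76% and 9.1%). Group sizes were 2 or 3 libraries throughout. Such counts depend on the spread within groups, which at EB D2 was wider between the DNMT KO libraries than between the DNMT WT libraries. The EB D2 count was 61 with only DNMT libraries in the fit and 360 with voom on recovered reads. Its rank beside ESC D0, EpiLC D1 and EpiLC D2 is therefore uncertain. Of the 143 genes higher at EB D2, 12 were also higher at ESC D0, which is 8.39% of them and 15.4% of those called there. At EpiLC D2, the other state at day 2, 46 were also higher, 32.2% of them and 27.5% of those called there. At EB D4 it was 68, 47.6% of them and 9.87% of those called there, and at EB D6 it was 78, 54.5% of them and 4.62% of those called there. A further 13 were called lower in DNMT KO at EB D6, and 39 were called higher at EB D2 and at no other condition. A missing call elsewhere is not a test that the change differs between conditions. Several of the 39 lose their EB D2 call without DNMT KO replicate 2, Etv2, Hist3h2ba and Cyba among them. At all 7 conditions, 10 genes were higher: the germline genes Dazl, Asz1, Nxf2 and Tuba3b, Efhc2, Tktl2, Nlrp4c, an oocyte NLR gene, and 4930502E18Rik, 4930550L24Rik and Gm364. At EB D2, Nlrp4c loses its call without DNMT KO replicate 2 (0.99, adjusted p = 0.0585) and with a replicate block (0.95), and 4930502E18Rik loses it with centring within bins of exon length (0.98).

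**Figure D4:**
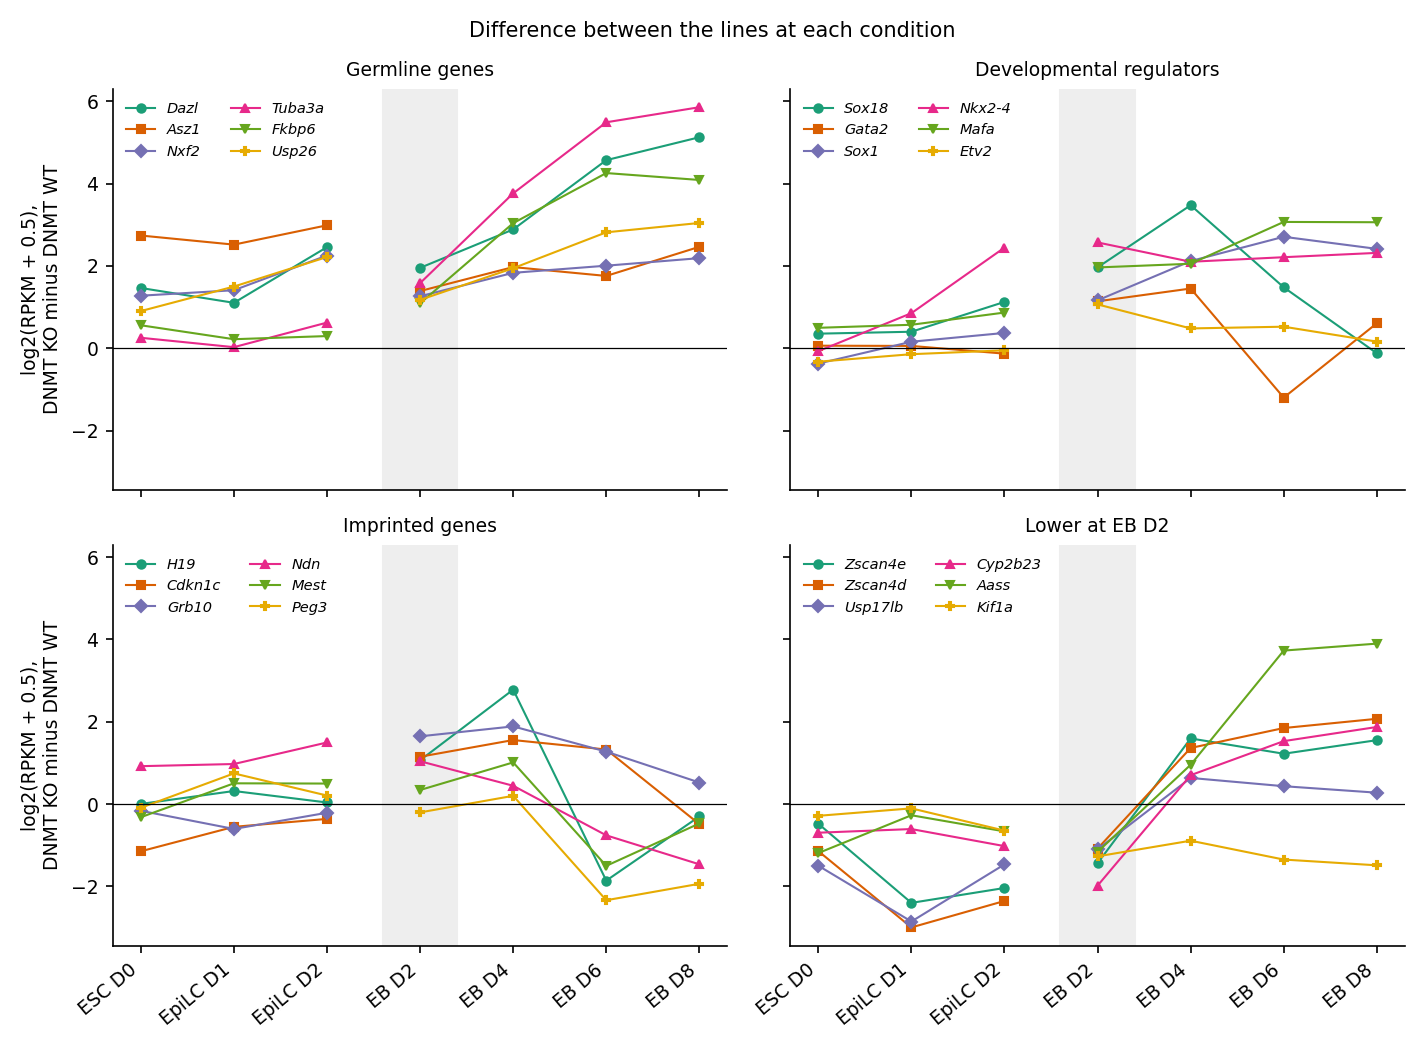
Log2 change, DNMT KO minus DNMT WT on the log2(RPKM + 0.5) scale (y axis), of 24 genes in 4 panels at each of 7 conditions (x axis, ESC and EpiLC conditions to the left of the gap, embryoid bodies to the right), with EB D2 shaded. Dazl, Asz1 and Nxf2 are above 1 at all 7 conditions, Sox1 and Gata2 first pass 1 at EB D2, Sox18 is above 1 from EpiLC D2 to EB D6 and near 0 at EB D8, and Zscan4e and Zscan4d are below 0 up to EB D2 and above 0 from EB D4.

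Members of 1 group differed in how the day 2 change related to other conditions. Dazl changed by 1.47 at ESC D0, 2.46 at EpiLC D2, 1.95 at EB D2 and 5.13 at EB D8. Asz1 changed by 2.74, 2.99, 1.39 and 2.47 at these conditions, and Fkbp6 by 0.56, 0.30, 1.09 and 4.09. The median of the germ cell regulators was 0.44 at ESC D0, 0.12 at EB D2 and 0.03 at EB D4. Among imprinted genes, H19 was at 0.01 at ESC D0, 1.06 at EB D2, 2.78 at EB D4 and -1.86 at EB D6, and Ndn was at 0.92, 1.04, 0.45 and -0.76. The two-cell-like genes turned over between days 2 and 4, with 0 higher and 3 lower at EB D2 but 13 higher and 0 lower of 19 at EB D4. Zscan4e averaged 1.66 ± 0.211 RPKM in DNMT KO and 0.216 ± 0.0917 RPKM in DNMT WT at EB D4 (SD, n = 3 and 2). Aass, lower in DNMT KO at EB D2, averaged 7.30 ± 0.408 RPKM in DNMT KO and 3.53 ± 0.423 RPKM in DNMT WT at EB D4.

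The response of the lines to the first 2 days as embryoid bodies was compared by testing the difference between the DNMT KO effect at EB D2 and that at ESC D0. It was called for 366 genes, 2.4% of those tested, with 260 positive (1.7%) and 106 negative (0.694%), and for 552 without DNMT KO replicate 3 of EB D2. Dnmt3l had the largest positive difference, 3.29 ± 0.18 (SE, adjusted p = 3.65e-09). It averaged 167 ± 17.3 RPKM in DNMT KO and 88.6 ± 6.31 RPKM in DNMT WT at EB D2 (SD, n = 2 and 3), but 4.69 ± 0.531 RPKM in DNMT KO and 26.3 ± 0.683 RPKM in DNMT WT at ESC D0 (n = 3 and 2). The order of the lines was thus opposite in the 2 states. Cdkn1c had the same reversal, with 0.533 ± 0.270 RPKM in DNMT KO and 1.76 ± 0.516 RPKM in DNMT WT at ESC D0 (difference 2.30 ± 0.26). Ppp2r2c was equal at ESC D0, at 20.9 ± 1.10 RPKM in DNMT KO and 19.5 ± 0.467 RPKM in DNMT WT, and its DNMT WT level at EB D2 was the lower one by far (difference 2.12 ± 0.20). Nkx2-4 was near the floor in ESCs of both lines, at 0.295 ± 0.277 RPKM in DNMT KO and 0.305 ± 0.108 RPKM in DNMT WT (difference 2.64 ± 0.37).

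Several of the largest negative differences, beside those of Dnmt3a and Eif2s3y, were of germline genes that stood higher in DNMT KO than in DNMT WT at ESC D0. Magea8, an X-linked MAGE gene, averaged 7.24 ± 1.02 RPKM in DNMT KO and 0.721 ± 0.131 RPKM in DNMT WT at ESC D0, and its EB D2 libraries held 1 read or none (difference -2.65 ± 0.15, and not called with voom on recovered reads, adjusted p = 0.199). Stra8, the gene that starts meiosis under retinoic acid, averaged 12.3 ± 1.99 RPKM in DNMT KO and 2.47 ± 0.711 RPKM in DNMT WT at ESC D0, and 0.432 ± 0.0678 RPKM in DNMT KO and 0.329 ± 0.0572 RPKM in DNMT WT at EB D2 (difference -1.95 ± 0.28). Sycp1, a gene of the synaptonemal complex, had a difference of -1.55 and Scml2, a germline Polycomb protein, of -1.91. Efhc2 was higher in DNMT KO at both states but less so at EB D2, with 21.9 ± 0.796 RPKM in DNMT KO and 2.47 ± 0.0461 RPKM in DNMT WT at ESC D0 (difference -1.52 ± 0.17). Asz1 had the same course, with 9.65 ± 1.22 RPKM in DNMT KO and 1.04 ± 0.385 RPKM in DNMT WT at ESC D0 (difference -1.35 ± 0.23).

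From day 2 to day 4 the lines parted at the genes of gastrulation. The difference between the DNMT KO effect at EB D4 and that at EB D2 was called for 645 genes, 4.22% of those tested, with 453 positive (2.97%) and 192 negative (1.26%). Mixl1, a homeobox gene of the streak, averaged 0.274 ± 0.148 RPKM in DNMT KO and 17.8 ± 7.96 RPKM in DNMT WT at EB D4 (SD, n = 3 and 2), and 0.673 ± 0.472 RPKM in DNMT KO and 0.430 ± 0.225 RPKM in DNMT WT at EB D2 (difference -4.82 ± 0.44). Fgf8 reversed its order, since its level at EB D4 was 3.49 ± 1.002 RPKM in DNMT KO and 44.8 ± 4.72 RPKM in DNMT WT (difference -4.66 ± 0.30). Eomes, at 3.36 ± 0.275 RPKM in DNMT KO and 61.9 ± 9.76 RPKM in DNMT WT at EB D4, gave a difference of -3.20 ± 0.26. Gsc, T, Sp5, Wnt8a and Foxa2 gave differences of -4.75 to -3.91, all from day 2 levels that did not separate the lines. In the other direction, the embryonic globins Hba-x and Hbb-y reached 41.3 ± 6.09 and 45.5 ± 8.19 RPKM in DNMT KO at EB D4, against 1.92 ± 0.819 and 2.18 ± 0.470 RPKM in DNMT WT, with differences of 4.16 and 3.84. Both globins were under 0.5 RPKM in all 5 libraries at EB D2. Sox18, Gata2 and Etv2 were higher in DNMT KO at EB D2, Etv2 at 0.80 without DNMT KO replicate 2. A link between these genes and the globins was not tested. Of the 13 genes of the blood and endothelium list, 9 were higher and 0 lower at EB D4. At EB D6, 1 was higher and 8 lower, and at EB D8, 0 and 6. Cdh5, the endothelial cadherin, averaged 6.56 ± 0.628 RPKM in DNMT KO and 0.208 ± 0.0399 RPKM in DNMT WT at EB D4 (difference 2.99 ± 0.24).

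**Figure D5:**
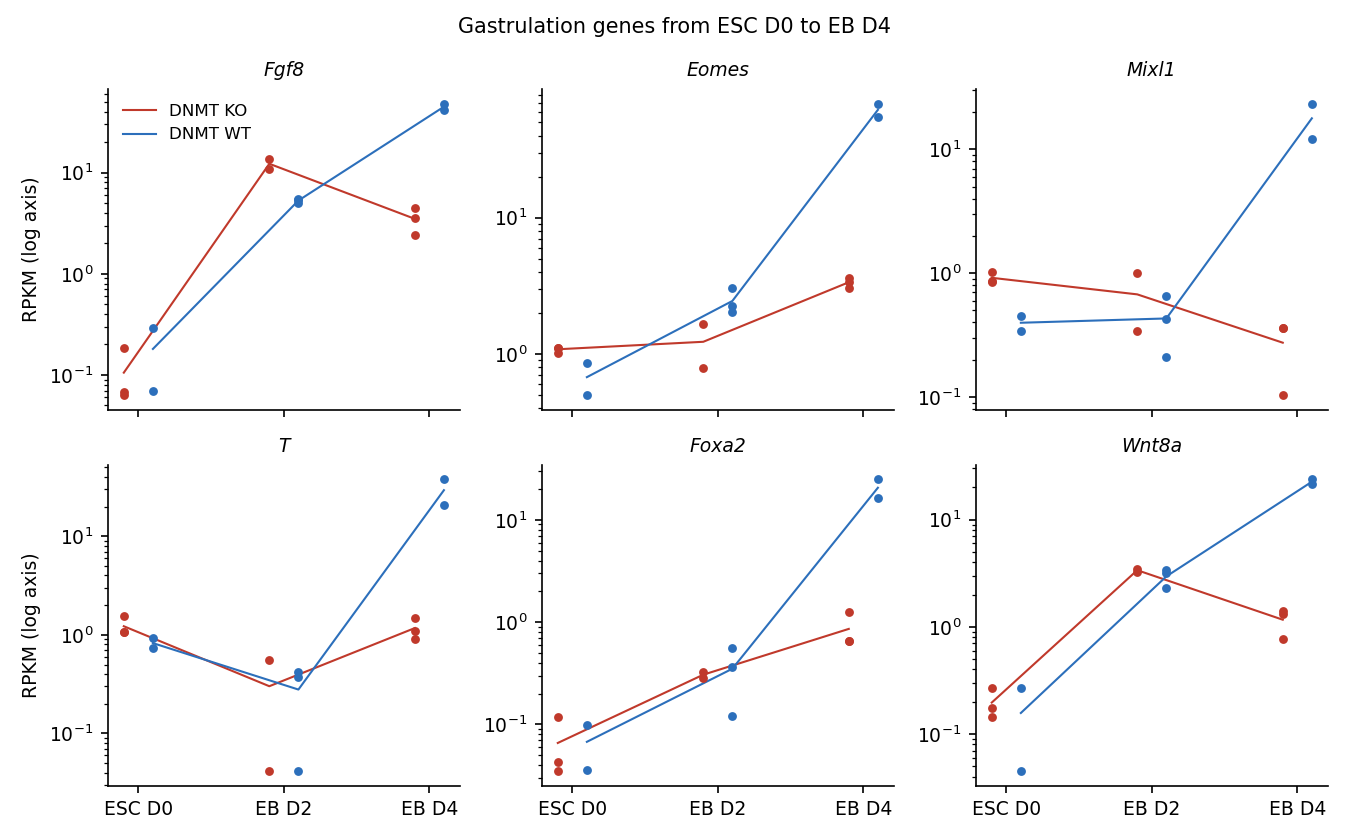
RPKM (log axis) of 6 gastrulation genes in each DNMT KO library (red) and DNMT WT library (blue) at ESC D0, EB D2 and EB D4, with lines through the group means. At EB D2 the lines are near each other for all but Fgf8, which is higher in DNMT KO, and Eomes, whose difference missed the threshold, and at EB D4 all 6 genes are higher in DNMT WT.

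The DNMT KO effect at EB D2 was also tested against the TET KO effect at the same stage, each line being set against its own parent. In TET KO against TET WT at EB D2, 7.41% of genes were called, 4.7% higher and 2.71% lower. The effects differed for 1508 genes, 9.88% of those tested, 679 (4.45%) with the larger value in DNMT KO and 829 (5.43%) with the smaller, a balance that turns to 53.3% larger when libraries are centred on their median. For Lefty2 and Sox1 the effects had opposite signs. Lefty2 averaged 106 ± 9.21 RPKM in DNMT KO and 46.0 ± 2.24 RPKM in DNMT WT, and 19.24 ± 0.361 RPKM in TET KO and 91.2 ± 6.64 RPKM in TET WT (difference of effects 3.41 ± 0.11, SD with n = 2 and 3 in each pair). Sox1 averaged 6.43 ± 0.317 RPKM in DNMT KO and 2.59 ± 0.126 RPKM in DNMT WT, and 0.401 ± 0.0854 RPKM in TET KO and 3.51 ± 0.504 RPKM in TET WT (difference 3.32 ± 0.17). The parental lines differed from each other too, so that Sox18, at 4.09 ± 0.649 RPKM in DNMT WT, was at 1.36 ± 0.121 RPKM in TET WT. Grb10, Cdkn1c and Fgf8 were likewise higher in DNMT KO and lower in TET KO than in their parents, with differences of 2.95, 2.16 and 2.90. Dazl was higher in both knockouts, with 9.06 ± 0.205 RPKM in TET KO and 4.90 ± 1.16 RPKM in TET WT, and the effect in DNMT KO was the larger (difference 1.11 ± 0.26, adjusted p = 0.0124). Crabp1 was higher in both knockouts, and its effects differed by 0.13 ± 0.29 (adjusted p = 0.792).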

How the data were processed

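Polyadenylated RNA from DNase-treated column extracts was sequenced with strand information kept, per the labels' protocols. HISAT2 2.1.0 was the aligner and GRCm38 the build, after trimming by Trim Galore 0.6.1 with cutadapt 1.18, per the submitters' processing notes, which name no counting tool or annotation. The authors deposited log2 RPKM values, in which a gene without a read carries 0.9 reads. With GENCODE M21 exon lengths, 96.8% to 97.5% of values between 1 and 100 reads per library came out whole within 0.1. Of 35269 entries, 39 repeated identifiers were left out. Sensitivity to depth is limited to counting error at 10300000 to 11500000 reads per library.

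The model was fitted to log2(RPKM + 0.5) with limma 3.58.1 (R 4.3.3), using trended and robust eBayes, on the EB D2 libraries of all 4 genotypes, and each interaction on both conditions of all 4 genotypes. P-values were Benjamini-Hochberg adjusted over 15267 genes. Tables were handled in Python 3.11.15. Promoters are from RefSeq (GRCm38.p6), 250 bases before to 50 after each start.

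Members and the 34 gene lists were chosen with earlier results of these data known. Named genes were the targeted genes, the 15 largest rises and falls among called genes without library overlap, with 5 RPKM or more in the higher group and no clone name, up to 4 called members of each list, the 8 largest differences each way of each interaction, with no overlap of DNMT KO and DNMT WT libraries in at least 1 of the conditions compared, and 22 preset genes. List members under the size threshold, and Nefh, Tbx1 and Ikzf1, were named after their values were seen. Of the DNMT WT columns at EpiLC D1, 1 matched only its group. Alternatives changed the samples fitted, filter, pseudocount, scaling, variance model and libraries, and centring within 20 bins of exon length was added after seeing the data.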

Additional observations from a re-analysis of the deposited data

Results flagged for a closer look

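The DNMT KO effect at EB D2 differed from that at ESC D0 for 366 genes by the test of the difference itself (limma, adjusted p under 0.05 and a log2 of at least 1). The largest positive differences, in log2, were Dnmt3l at 3.29, Nkx2-4 at 2.64, Ceacam10 at 2.41, Cdkn1c at 2.30, Foxd1 at 2.26, Tesc at 2.17, Ppp2r2c at 2.12 and Prph at 2.05. Ceacam10 and Foxd1 were lower in DNMT KO than in DNMT WT at ESC D0, at 2.70 ± 0.352 RPKM against 11.4 ± 0.976 RPKM for Ceacam10 and 1.03 ± 0.193 RPKM against 5.52 ± 0.124 RPKM for Foxd1 (SD, n = 3 DNMT KO and 2 DNMT WT), and both were near or under 0.5 RPKM at EB D2. The largest negative differences were Magea8 at -2.65, Stra8 at -1.95, Scml2 at -1.91, Dnmt3a at -1.85, Eif2s3y at -1.73, Sycp1 at -1.55, Lad1 at -1.52 and Efhc2 at -1.52.

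The DNMT KO effect at EB D4 differed from that at EB D2 for 645 genes. Negative differences were led by Mixl1 at -4.82, Gsc at -4.75, Fgf8 at -4.66, T at -4.11, Sp5 at -4.04, Wnt8a at -3.99, Foxa2 at -3.91 and Eomes at -3.20, all known in gastrulation. Positive differences were led by Hba-x at 4.16, Hbb-y at 3.84, Cox7b2 at 3.13, Cdh5 at 2.99, Platr16 at 2.93, Rpl39l at 2.73, Cyp2b23 at 2.68 and Platr13 at 2.66. Cyp2b23 was lower in DNMT KO at EB D2, and averaged 2.23 ± 0.778 RPKM in DNMT KO and 1.13 ± 0.0260 RPKM in DNMT WT at EB D4 (SD, n = 3 and 2).

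The DNMT KO and TET KO effects at EB D2 differed for 1508 genes. Negative differences were led by Rpl29 at -4.61, Dnmt3b at -3.86, Eif2s3y at -3.71, H2-Q6 at -3.63, Ddx3y at -3.63, Krt18 at -3.38, Dnmt3a at -3.31 and Kif1a at -3.11. For Rpl29 the difference lay in the TET lines, with 11.2 ± 0.831 RPKM in DNMT KO and 13.6 ± 1.55 RPKM in DNMT WT, and 115 ± 3.01 RPKM in TET KO and 5.22 ± 0.683 RPKM in TET WT (SD, n = 2 and 3 in each pair). Positive differences were led by Notum at 4.26, Nxf3 at 3.88, Fam25c at 3.83, Lgals3 at 3.44, Lefty2 at 3.41, Sox1 at 3.32, Nkx2-4 at 3.30 and Aard at 3.24. Notum, a secreted Wnt inhibitor, averaged 7.24 ± 1.29 RPKM in DNMT KO and 4.62 ± 0.390 RPKM in DNMT WT, and 1.46 ± 0.183 RPKM in TET KO and 24.4 ± 3.18 RPKM in TET WT. The causes of these differences were not tested.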

How the results depend on the processing

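The count of 174 called genes was 61 with only DNMT libraries in the fit, 305 with a pseudocount of 0.1 RPKM, 308 with none, 87 with 1 RPKM and 360 with voom on recovered reads, and 135 to 372 when 1 library was left out, with 372 without DNMT KO replicate 3. The 366 genes whose effect differed from ESC D0 were 201 with a pseudocount of 1 RPKM and 320 to 552 leaving out 1 library. The 645 genes that differed from EB D4 ranged from 528 to 855 leaving out 1 library. The 1508 that differed from the TET KO effect were 984 with a pseudocount of 1 RPKM and 1418 to 1830 leaving out 1 library. Of 2563 values of named genes under the alternatives, 2438 kept their call or its absence, 116 lost a call, 9 gained one and 0 called values reversed. Among 1156 counts of list members, 106 moved by over 1.5 times. Centring within bins of exon length kept the calls of 117 of the 143 higher and all 31 lower genes, and those it ended include Sohlh2, Etv2, Fkbp6, Fgf8, Fthl17f, Cyba, S100a10 and 4930502E18Rik. A fit without a pseudocount ended the differences of Efhc2, T and Tesc. The causes of these shifts were not tested. Low genes rest on few reads at this depth, and their changes depend on the pseudocount. Equal replicate numbers did not deviate together (correlation -0.03 for replicates 2 and 3), and with a replicate block the counts were 137, 362, 633 and 1478.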

Other observations

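Of the 143 genes higher in DNMT KO at EB D2, 39 were called higher at no other condition. They included Cyba, a subunit of the phagocyte oxidase, with 15.9 and 13.8 RPKM in DNMT KO against 7.10, 7.66 and 6.07 RPKM in DNMT WT, and S100a10, an annexin partner, with 44.5 and 26.6 RPKM in DNMT KO against 15.8, 16.6 and 16.8 RPKM in DNMT WT. Both lose the call without DNMT KO replicate 2, at a log2 of 0.95 for Cyba and 0.68 for S100a10, and with centring within bins of exon length, at 0.94 and 0.92. The factor Foxa1, known from endoderm, had 1.36 and 1.48 RPKM in DNMT KO against 0.292, 0.432 and 0.240 RPKM in DNMT WT, and Hmx1, a homeobox gene of sensory ganglia, had 1.82 and 0.873 RPKM in DNMT KO against 0.0550, 0.0603 and 0.0504 RPKM in DNMT WT. These 4 were named after their values were seen.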
